A study of Mus musculus with 6 samples.

Results

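The Rab GTPase genes of vesicle traffic were followed in mouse splenic dendritic cells of wild-type and IRF4-deficient mice. They were taken as all rows of the raw count table whose symbol was Rab followed by a number and optional suffix and that had at least 10 counts over the 6 libraries. Of 14535 rows, 48 met the rule. The rule uses symbol and total count alone. The lowest totals inside it were Rab13 with 29 counts and Rab33a with 32, and the symbols outside it were Rab40b with 9, Rab17 with 8 and Rab3b with 7.

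Rab proteins are small GTPases that mark the membranes of a cell and steer the vesicles that move between them. Each switches between a form bound to GDP, held in the cytosol by a GDP dissociation inhibitor, and a membrane-bound form carrying GTP that recruits effectors such as tethers and motors. Guanine nucleotide exchange factors turn Rabs on and GTPase-activating proteins turn them off. In dendritic cells, Rab-directed traffic carries captured antigen through endosomes and phagosomes, and brings MHC molecules and secretory cargo to the surface.

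The libraries were made from total RNA of type 2 conventional dendritic cells (cDC2s) of mouse spleen, on the C57BL/6 strain throughout. The donors of 3 libraries were CD11c-Cre Irf4fl/fl mice, whose Cre transgene is driven by the promoter of the dendritic cell gene CD11c and recombines the floxed allele of the transcription factor gene Irf4 where that promoter is active. These are called IRF4-deficient. The other 3 libraries are wild type (WT), and the sources used here do not say whether WT mice carried Cre or the floxed allele, so an effect of either cannot be told apart from that of Irf4 loss. Age, sort gate and whether each library is a separate mouse are not given in those sources. The p-values therefore reflect variation among the 6 libraries, part of which may be technical. Library totals ran from 7421605 to 11459920 counts. Irf4 itself checked the labels, with 25.8% of the WT level left (log2 fold change -1.95, 95% interval -2.20 to -1.71, edgeR adjusted p = 1.45e-09). Reads from exons outside the deleted part can count toward this remainder. Of the cDC2 markers, Sirpa and Itgam were abundant at 909 and 617 CPM in WT cells, while Clec10a and Mgl2 were near 0 (3.50 and 0.885 CPM). In IRF4-deficient cells Itgam rose 3.03-fold, and Cd4 and Cd209a fell 4.23-fold and 2.48-fold (edgeR adjusted p of at most 3.09e-07). IRF4-deficient replicate 3 stood apart from the other libraries of its group on the second principal component (-34.1 against 18.8 and 18.8), so results that change without it are given both ways.

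Of the tested Rab genes, 35 of 42 were not called, and the 7 that passed the test were listed in the Golgi and exocytic groups. Roles were assigned with results known, and Rab27a and Rab39 could also stand among late endosomal or lysosome-related genes. Rab30 (5.42-fold), Rab43 (1.84-fold) and Rab6b (1.79-fold) fell in IRF4-deficient cells. Rab26 (3.32-fold), Rab39 (1.67-fold) and Rab8b (1.19-fold) were also called lower, but lost the call in 4, 3 and 5 of the 6 fits that each left out a library. Rab27a, whose product docks lysosome-related secretory organelles at the plasma membrane, rose 1.93-fold. Of the 48 Rab genes, 42 had enough counts to be tested, and 7 of these were called by edgeR at a Benjamini-Hochberg adjusted p under 0.05, which is 16.7% against 20.4% of all 11934 genes tested. In direction, 1 was higher (2.38%, against 9.87% of all genes) and 6 were lower (14.3%, against 10.5%). The overall share of Rab genes called was thus near that of all genes. Without IRF4-deficient replicate 3 the counts were 4 higher and 7 lower, and included the recycling Rab Rab11a and the endosomal Rab31. Without IRF4-deficient replicate 2 or WT replicate 3, 3 were called lower. The median log2 fold change was 0.03 over the tested Rab genes, with 23 above and 19 below 0, and 0.00251 over all genes. Fewer cells of a type and less RNA per cell cannot be told apart in such bulk libraries.

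**Figure D1:**
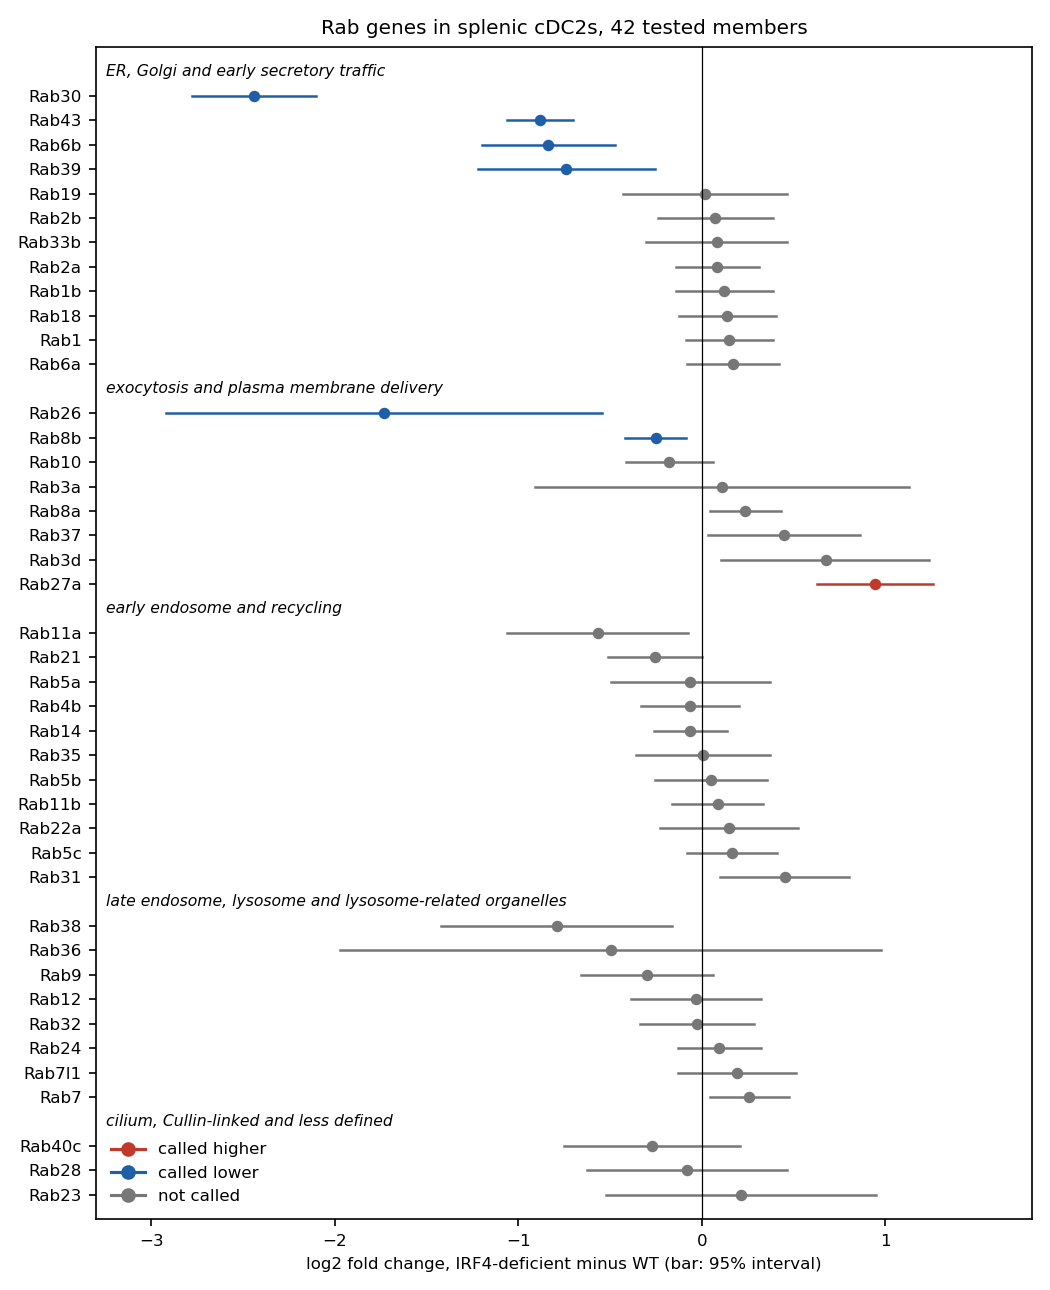
Log2 fold change (IRF4-deficient minus WT) of the 42 tested Rab genes, grouped by the site of action of the product, with the 95% interval as a bar. The 6 genes called lower include 4 of the ER and Golgi group, and Rab27a is the only gene called higher.

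Markers of other cell types moved with genotype. Summed levels of 14 red pulp macrophage genes were 1860 to 3470 CPM in IRF4-deficient against 1120 to 1470 CPM in WT libraries, with 9 genes called higher. Those of 8 monocyte genes were 1660 to 1990 against 700.0 to 904 CPM, with 5 of 7 tested genes called higher, although the monocyte marker Ly6c2 stayed near 0 (2.92 and 1.54 CPM on average). IRF4-deficient replicate 3 had the highest macrophage sum. The 9 cDC2 genes summed to 3280 to 3620 against 2680 to 2830 CPM, with Itgam called higher and Cd4 and Cd209a lower. Itgam, at 1869 against 617 CPM on average, made up most of the sum in IRF4-deficient libraries. Without it the cDC2 list summed lower in IRF4-deficient than in WT libraries. The 7 pan-dendritic genes summed to 28000 to 29100 against 31400 to 35200 CPM, with 6 called lower and Itgax higher. The cDC1 list summed to 893 to 1030 against 1630 to 1780 CPM, but Wdfy4, which was called lower, made up most of that sum. Without Wdfy4 the list summed to 174.3 to 249.3 against 122.1 to 137.5 CPM, with Cadm1, Clec9a, Tlr3 and Xcr1 called higher. Neutrophil, platelet, B cell and T cell sums overlapped between the groups, though Cd79b was called higher and Cr2 and Ms4a1 lower within the B cell list. Plasmacytoid dendritic cell sums overlapped too (208 to 235 against 214 to 251 CPM), with Cox6a2 and Siglech called higher and Ccr9 lower. The part of these shifts in the Rab differences was not tested.

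Rab43, whose product acts at the Golgi and is known for antigen cross-presentation by cDC1s, had the highest level of the family in WT cells. It stood at 588.7, 550.0 and 652.3 CPM (CPM is the count relative to the TMM-scaled library total) in WT replicates 1 to 3. In IRF4-deficient replicates 1 to 3 it stood at 324.1, 338.8 and 309.8 CPM, so each of them lay well below the lowest WT library. The log2 fold change was -0.88 (standard error, SE, 0.08, edgeR adjusted p = 3.15e-07). Per kilobase of exon, Rab43 fell from first place among the 48 genes, at 108.0 CPM per kb, to the fourth, at 58.7 CPM per kb. The gene lies on the minus strand of GRCm38 chromosome 6, 87788853 to 87812164. A same-strand annotated gene, Gm45140, which has no row in the table, covers 75.35% of its exon bases and shares 74.5% of its 50-base words, so reads of the pair could not be separated in the annotation used here and the level of Rab43 is uncertain.

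Promoter windows are shown for Rab43 and Rab27a, the lower gene with the highest level and the gene called higher, because IRF4 is known to bind DNA with ETS partners such as PU.1 at composite elements or with AP-1 proteins. RefSeq windows from 250 bases before to 50 after a start site (GRCm38.p6) were listed for 40 of the 48 genes. The 250 bases before the start are printed 5′ to 3′ on the gene's strand, and capitals mark a motif match. Of 4 Rab43 windows, the upstream one at chr6:87812165-87812414 (minus strand) and the only one with a match, at chr6:87809758-87810007 (minus strand), are shown. The latter lies inside the gene and overlaps none of its exons. Of 2 Rab27a windows, neither with a match, the upstream one at chr9:73044560-73044809 (plus strand) is shown.
Rab43 upstream: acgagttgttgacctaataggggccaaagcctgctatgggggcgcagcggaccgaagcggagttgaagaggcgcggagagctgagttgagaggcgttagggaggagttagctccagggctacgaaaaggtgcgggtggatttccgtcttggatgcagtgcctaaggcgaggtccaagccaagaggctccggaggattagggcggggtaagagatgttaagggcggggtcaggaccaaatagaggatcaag
Rab43 inner start: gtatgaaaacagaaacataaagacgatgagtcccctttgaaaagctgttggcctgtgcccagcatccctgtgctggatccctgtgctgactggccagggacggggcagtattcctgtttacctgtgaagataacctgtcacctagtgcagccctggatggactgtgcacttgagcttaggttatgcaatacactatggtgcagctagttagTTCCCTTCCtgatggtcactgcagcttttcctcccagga
Rab27a upstream: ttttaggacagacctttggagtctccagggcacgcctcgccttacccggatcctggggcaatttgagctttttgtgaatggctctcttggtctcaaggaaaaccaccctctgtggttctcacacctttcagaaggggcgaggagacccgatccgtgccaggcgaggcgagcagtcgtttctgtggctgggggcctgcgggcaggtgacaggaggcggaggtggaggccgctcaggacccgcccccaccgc

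The capitals in the inner Rab43 window are a reverse-strand match to GGAANNGAA, the core of an ETS-IRF composite element, and the other windows of Rab43 and Rab27a held none of the motifs searched. Searches covered both strands and allowed overlaps. GGAANNGAA was found in windows of 6 Rab genes (Rab11b, Rab12, Rab13, Rab21, Rab43 and Rab6a), which is 15% against 9.42% of 27025 genes with a window. The interferon response core GAAANNGAA was found for Rab19 and Rab20 (5.0% against 9.76%). The AP-1 motif TGANTCA was found for Rab34 and Rab39b (5.0% against 8.97%). The lysosomal CLEAR core TCACGTGA was found for Rab21, Rab24 and Rab5a (7.5% against 1.12%). Of the genes with a match, Rab43 is the only one called in the comparison. The called genes Rab30 and Rab26 had no window and were not searched. A match describes letters in the window and shows no binding.

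The ER and Golgi group held 4 of the 6 genes called lower, among 12 tested (33.3%, against 10.5% of all genes), in roles assigned with results known. Rab30, a Golgi Rab needed for Golgi structure, had the largest fold change among the tested Rab genes. It was at 63.2, 65.0 and 73.48 CPM in WT and at 10.03, 13.97 and 13.36 CPM in IRF4-deficient replicates 1 to 3. The groups were far apart, and 18.4% of the WT level was left (log2 fold change -2.44, SE 0.16, edgeR adjusted p = 2.62e-09). Rab30 lies on the plus strand of GRCm38 chromosome 7, 92741603 to 92844535, and no other annotated gene overlaps its exons.

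Rab6b, best known from neurons and a relative of the ubiquitous Golgi-to-ER regulator Rab6a, was at 27.94, 30.0 and 36.33 CPM in WT and at 16.93, 17.55 and 18.26 CPM in IRF4-deficient libraries. The groups did not overlap, and the IRF4-deficient libraries lay close together (log2 fold change -0.84, SE 0.17, edgeR adjusted p = 0.00156). Its paralog Rab6a was more abundant (18.8 against 6.25 CPM per kb in WT) and was not called. It was at 70.67, 64.46 and 74.58 CPM in WT and 87.52, 71.31 and 76.61 CPM in IRF4-deficient libraries, which overlap (log2 fold change 0.17, 95% interval -0.08 to 0.42, edgeR adjusted p = 0.367). The difference between the paralogs' fold changes was not tested, although their intervals (-1.20 to -0.47 for Rab6b) do not meet.

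Rab39, also known from late endosomes and phagosomes, was at 17.29, 17.64 and 30.32 CPM in WT and at 13.8, 12.85 and 12.25 CPM in IRF4-deficient replicates 1 to 3. WT replicate 3 stood above the other WT libraries. The log2 fold change was -0.74 (SE 0.23, edgeR adjusted p = 0.0281), and without WT replicate 3 it was -0.43 with an adjusted p of 0.252. The call was also lost without IRF4-deficient replicate 2 (0.0715) or 3 (0.0602). Its X-linked paralog Rab39b, known from neurons, was near 0 and was left out by the filter on low counts. Rab39b had 3, 0 and 1 counts in IRF4-deficient and 8, 26 and 5 in WT replicates 1 to 3. Its summed CPM-scaled level was 10.7-fold higher in WT, with an exact 95% interval of 3.85 to 41.1 that covers counting error only. With no filter it was called lower by edgeR (log2 fold change -3.22, adjusted p = 0.0349).

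The other ER and Golgi members stayed close to the WT level, with log2 fold changes from 0.02 (Rab19) to 0.17 (Rab6a), all with edgeR adjusted p above the threshold. Rab1, which directs ER-to-Golgi transport and is named Rab1a in GENCODE, had the highest level per kilobase of these. It was at 243.0, 235.1 and 261.4 CPM in WT and at 307.9, 294.4 and 218.3 CPM in IRF4-deficient replicates 1 to 3. Replicate 3 lay below all WT libraries and the other 2 above them, and without it the log2 fold change went from 0.15 (edgeR adjusted p = 0.391) to 0.29 (0.0225). The remaining members were Rab1b (53.2 against 48.9 CPM, IRF4-deficient against WT), the ER-to-Golgi Rabs Rab2a (96.4 against 91.1) and Rab2b (33.4 against 31.8), the ER and lipid droplet Rab Rab18 (58.1 against 52.6), Rab19 (15.7 against 15.6) and the Golgi and autophagy Rab Rab33b (32.2 against 30.6). Genes annotated on the opposite strand overlap 63.99% of the exon bases of Rab2b, so its level is uncertain while the strand setting is unknown.

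**Figure D2:**
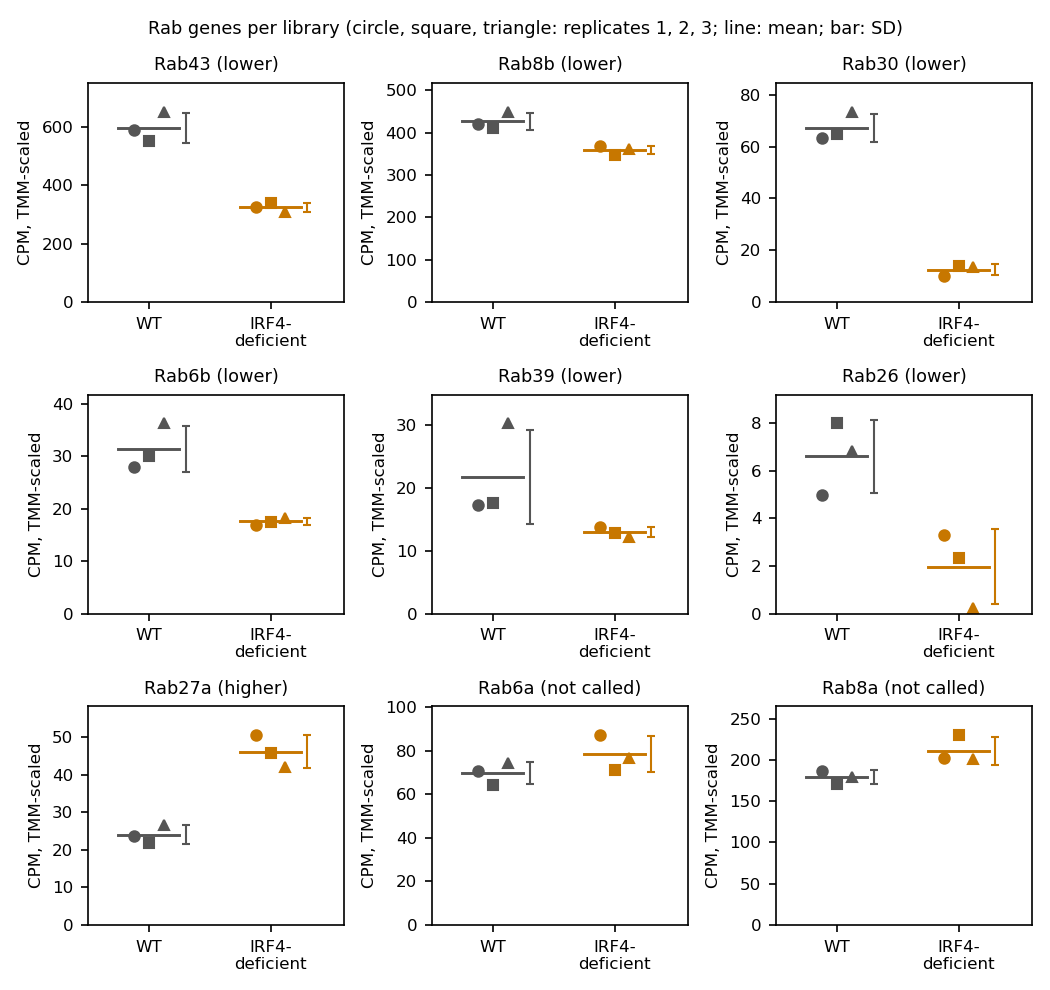
TMM-scaled CPM of 9 Rab genes in each of the 6 libraries, with a line at the mean of each group of 3. Groups of Rab30, Rab43, Rab6b, Rab39, Rab26 and Rab8b are separate with IRF4-deficient libraries lower, Rab27a and Rab8a are separate the other way, and Rab6a overlaps.

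The exocytic group had 3 calls among 8 tested genes (37.5%, against 20.4% of all genes), of which Rab8b held in 1 and Rab26 in 2 of the 6 fits that each left out a library. Rab27a, whose product serves melanosomes, cytotoxic granules and exosome release, was at 23.79, 21.73 and 26.64 CPM in WT and at 50.71, 45.85 and 41.98 CPM in IRF4-deficient replicates 1 to 3. Every IRF4-deficient library exceeded every WT library (log2 fold change 0.95, SE 0.15, edgeR adjusted p = 1.34e-04). Per kilobase it moved from place 31 to place 18 in the family, from 6.20 to 11.9 CPM per kb. It lies on the plus strand of GRCm38 chromosome 9, 73044854 to 73097629.

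Rab8b, which works in vesicle delivery to the plasma membrane, had the smallest of the called changes. It was at 421.0, 410.2 and 449.8 CPM in WT and at 367.8, 348.0 and 360.6 CPM in IRF4-deficient libraries, with no overlap (log2 fold change -0.25, SE 0.08, edgeR adjusted p = 0.0304). The call was lost without IRF4-deficient replicate 1 (0.0603) or 2 (0.115) and without WT replicate 1 (0.05), 2 (0.0583) or 3 (0.12). Its paralog Rab8a was at 187.1, 171.1 and 179.6 CPM in WT and at 202.4, 230.7 and 200.5 CPM in IRF4-deficient libraries. Those groups did not overlap either, in the opposite direction, and Rab8a was not called (log2 fold change 0.24, 95% interval 0.04 to 0.43, edgeR adjusted p = 0.0796). Without IRF4-deficient replicate 3 its adjusted p was 0.0493. The intervals of the pair (-0.42 to -0.08 for Rab8b) do not meet, and the difference itself was not tested.

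Rab26, a Rab of regulated secretion, was scarce at 4.979, 8.0 and 6.829 CPM in WT and 3.313, 2.348 and 0.2227 CPM in IRF4-deficient replicates 1 to 3. IRF4-deficient replicate 3 held 2 counts of it (log2 fold change -1.73, SE 0.56, edgeR adjusted p = 0.0377). The call was lost without IRF4-deficient replicate 2 (0.0873) or WT replicate 1 (0.0508), 2 (0.141) or 3 (0.0853), so it rests on few counts. Exons of the same-strand gene Traf7, which had 3316 counts against 231 for Rab26, cover 9.36% of the exon bases of Rab26. Of its 50-base words, 5.95% are shared. The level of Rab26 is therefore uncertain.

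Among the exocytic genes not called, Rab10, which delivers cargo to the plasma membrane, was at 191.4, 197.4 and 202.2 CPM in WT and 159.0, 151.9 and 211.9 CPM in IRF4-deficient replicates 1 to 3. Replicate 3 again lay apart, and without it Rab10 went from a log2 fold change of -0.18 (edgeR adjusted p = 0.31) to -0.34 (0.0108). The secretory granule Rab Rab37 was at 35.13, 30.45 and 34.83 CPM in WT and 34.6, 38.68 and 63.58 CPM in IRF4-deficient replicates (log2 fold change 0.45, edgeR adjusted p = 0.124, and 0.0286 without replicate 1). Rab3d, another granule Rab, was at 8.021, 5.182 and 8.605 CPM in WT and 12.79, 10.63 and 11.02 CPM in IRF4-deficient libraries. Its groups did not overlap, but it missed the threshold (log2 fold change 0.67, 95% interval 0.11 to 1.24, edgeR adjusted p = 0.0895). Rab3a, the synaptic vesicle Rab, was at 3.49 against 3.23 CPM with wide spread.

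No gene was called by edgeR among the 11 tested Rabs of early endosomes and recycling (0%, against 20.4% of all genes). With 11 genes, this is not read as a difference from all genes. DESeq2 called 0 and limma-voom 1 (Rab11a). An unadjusted edgeR p under 0.05 was found for 3, and the share of all genes under that threshold is not given here. Rab11a, the central Rab of recycling endosomes, was at 41.35, 45.37 and 40.16 CPM in WT and 24.02, 19.28 and 42.42 CPM in IRF4-deficient replicates 1 to 3. IRF4-deficient replicate 3 sat among the WT libraries and the other 2 far below them. The log2 fold change was -0.57 (95% interval -1.06 to -0.08, edgeR adjusted p = 0.0994), it was -0.96 without that replicate (adjusted p = 0.000343), and limma-voom gave an adjusted p of 0.0375. Rab21, which follows integrins into early endosomes, was at 199.2, 231.8 and 244.6 CPM in WT and 229.4, 164.4 and 171.2 CPM in IRF4-deficient replicates 1 to 3. There replicate 1 overlapped WT, and the log2 fold change went from -0.26 (edgeR adjusted p = 0.155) to -0.42 (0.0111) without it. Rab31, a Rab5 relative of the trans-Golgi and endosomes, was at 23.51, 23.27 and 23.36 CPM in WT and 37.92, 30.4 and 27.5 CPM in IRF4-deficient libraries. Its groups did not overlap (log2 fold change 0.45, edgeR adjusted p = 0.0654, and 0.0279 without IRF4-deficient replicate 3).

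The 3 forms of Rab5, the master regulator of early endosomes, differed in level more than between genotypes. Per kilobase of exon in WT, Rab5c stood at 58.7 CPM per kb, Rab5b at 8.07 and Rab5a at 3.69. Rab5c was at 152.4, 117.0 and 116.8 CPM in WT and 130.3, 140.6 and 161.4 CPM in IRF4-deficient libraries, which overlap (log2 fold change 0.16, 95% interval -0.08 to 0.41). For Rab5b and Rab5a the log2 fold changes were 0.05 and -0.06. Rab14, which links the trans-Golgi and endosomes, was at 178.3 ± 4.02 CPM in WT and 170.8 ± 15.1 CPM in IRF4-deficient cells (SD, n = 3 each). The remaining tested members, the recycling Rabs Rab4b, Rab11b and Rab35 and the endosomal Rab22a, had log2 fold changes between -0.06 and 0.15. The same-strand gene Gm21983 covers 64.97% of the exon bases of Rab4b, and 58.08% of the 50-base words of Rab4b are shared. The level of Rab4b is therefore uncertain.

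Late endosomes, lysosomes and lysosome-related organelles likewise had no gene called by edgeR among 8 tested (0%, against 20.4% of all genes). With 8 genes, this is not read as a difference from all genes. DESeq2 and limma-voom called 0. An unadjusted edgeR p under 0.05 was found for 2, again without a share of all genes beside it. The absence of calls depends on the roles assigned. The products of the called genes Rab27a and Rab39 are also known from such organelles, but both were counted in other groups. Rab7, which drives late endosome and phagosome fusion with lysosomes, was at 122.5, 111.7 and 108.0 CPM in WT and 134.5, 126.3 and 149.0 CPM in IRF4-deficient replicates 1 to 3. The lowest IRF4-deficient library stood just above the highest WT library (log2 fold change 0.26, 95% interval 0.05 to 0.47, edgeR adjusted p = 0.0831). Rab38, which serves melanosome-like organelles, was at 7.606, 12.46 and 9.015 CPM in WT and 6.074, 4.326 and 6.458 CPM in IRF4-deficient libraries. These groups were separate too (log2 fold change -0.79, 95% interval -1.42 to -0.16, edgeR adjusted p = 0.0711). Its relative Rab32 was at 69.15, 59.0 and 56.55 CPM in WT and 54.02, 51.54 and 75.49 CPM in IRF4-deficient libraries, which overlap (log2 fold change -0.03).

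Rab9, which returns receptors from late endosomes to the trans-Golgi, was at 24.2, 28.45 and 26.36 CPM in WT and 19.23, 23.73 and 21.49 CPM in IRF4-deficient libraries. All of the latter lay below WT, by less than the test required (log2 fold change -0.30, edgeR adjusted p = 0.253). Rab7l1, named Rab29 in GENCODE, was at 36.2 CPM in WT and 41.4 CPM in IRF4-deficient cells. Rab12 was at 23.8 and 23.3 CPM. Rab24, at 103.3 and 110.4 CPM, shares 62.43% of its exon bases with the antisense gene Prelid1, and its level is uncertain since the strand setting is unknown. Rab36 had 64 counts in all and an interval of -1.97 to 0.98.

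The 3 tested members outside these roles were the ciliary Rabs Rab23 and Rab28 and the Cullin-linked Rab40c. None was called by edgeR (against 20.4% of all genes), DESeq2 or limma-voom, and none had an unadjusted p under 0.05. Mean levels in WT and IRF4-deficient cells were 7.57 and 8.68 CPM for Rab23, 13.5 and 12.8 for Rab28, and 14.1 and 11.6 for Rab40c. Besides Rab39b, the 5 members too scarce to test were Rab13, Rab20, Rab33a, Rab34 and Rab4a, with 29 to 48 counts each. Over these 6 genes no library exceeded 2.364 CPM.

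Across the 35 tested genes that were not called, 24 had a 95% interval that lay within 1.5-fold of the WT level. For the other 11 (Rab11a, Rab23, Rab28, Rab31, Rab36, Rab37, Rab38, Rab3a, Rab3d, Rab40c and Rab9) the interval reached beyond that, so a change of 1.5-fold was not settled by these libraries. Some of them have low counts, as Rab36 does, and for Rab11a and Rab37 the IRF4-deficient libraries differed among themselves. Rab31, Rab3d, Rab7, Rab8a, Rab38, Rab9 and Rab40c had groups that did not overlap and still missed the threshold. These are 7 of 35 uncalled genes, near the 19.9% of all uncalled genes whose groups did not overlap. Over all tested genes, called or not, groups did not overlap for 14 of 42 Rab genes (33.3%) and for 35.6% of genes.

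**Figure D3:**
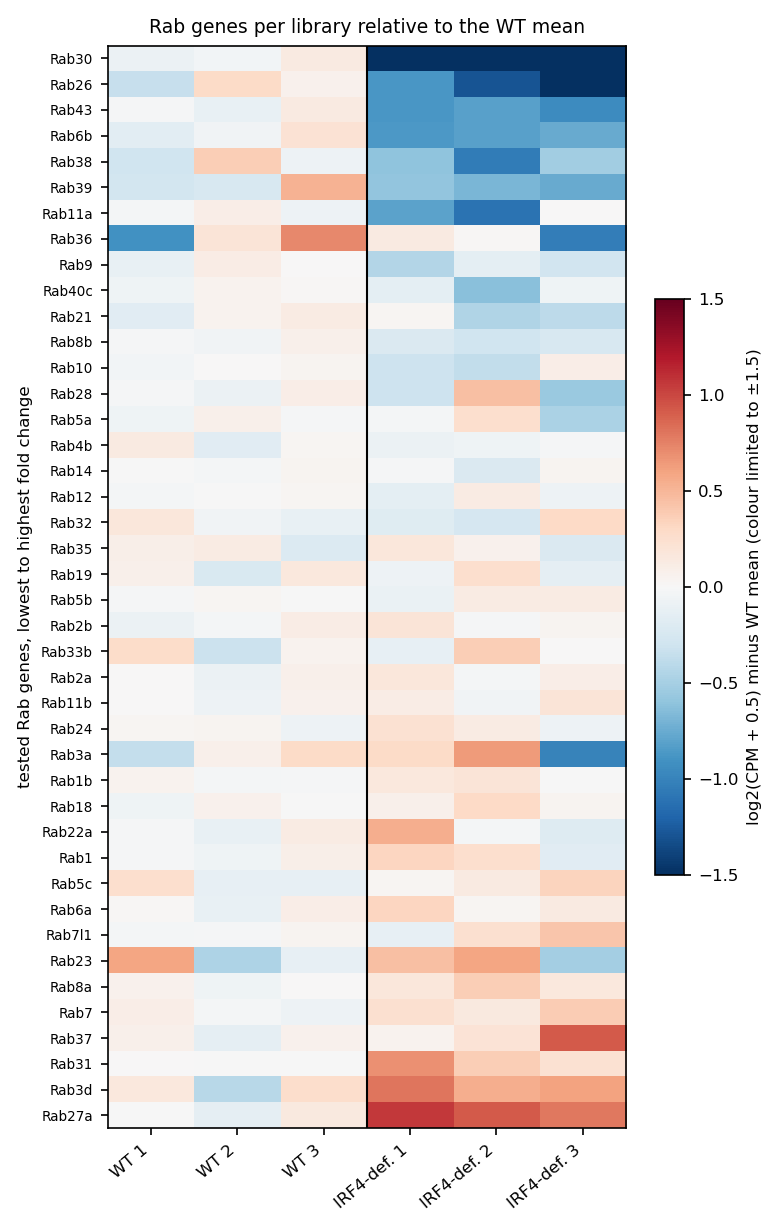
Log2(CPM + 0.5) of each tested Rab gene in each library minus its WT mean, with colour limits at -1.5 and 1.5. The Rab30 row is at the lower limit in all 3 IRF4-deficient libraries, and the Rab11a, Rab10, Rab1 and Rab37 rows differ between IRF4-deficient replicate 3 and the other 2.

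Summed over the 48 genes, Rab transcripts stood at 3423, 3302 and 3569 CPM in WT and 3164, 3057 and 3086 CPM in IRF4-deficient libraries. The TMM-scaled sum was lower in every IRF4-deficient library, at 3102 ± 55.3 against 3431 ± 134 CPM (SD, n = 3 each). As a share of raw counts the groups overlapped, at 0.3241, 0.3111 and 0.3196% in IRF4-deficient and 0.3324, 0.3169 and 0.352% in WT replicates 1 to 3. Rab43 made up 17.4 ± 0.819% of the WT sum and 10.4 ± 0.586% of the IRF4-deficient sum. Its mean went from 597.0 to 324.2 CPM. Per kilobase of exon the 10 most abundant genes were the same in both groups (Rab43, Rab8b, Rab1, Rab5c, Rab10, Rab24, Rab21, Rab7, Rab2a and Rab8a), with 66.5% of the Rab total in WT and 65.2% in IRF4-deficient cells. The order changed at the top, where Rab8b led in IRF4-deficient cells at 75.8 CPM per kb, before Rab1 at 72.0 and Rab5c at 65.7. Rab30 went from place 28 (6.97 CPM per kb) to place 39 (1.29).

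By position, 6 of the 48 genes lie on chromosome 9 (Rab11a, Rab27a, Rab39, Rab3d, Rab6b and Rab8b), and 4 of these are among the 7 called. They lie far apart, from Rab39 at 53684110 to 53706232 (minus strand) to Rab6b at 103111787 to 103185276 (plus strand), with Rab8b at 66843664 to 66919687 (minus strand). Of all tested genes placed on chromosome 9, 23.0% were called, against 20.8% of all placed genes. Chromosome 9 was looked at with the calls known. Chromosome 17 also holds 6 of the 48 genes, and of those only Rab26 was called.

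Genes that act on or with Rabs changed about as often as genes in general, at 21.3% of 150 tested, 13 higher and 19 lower (median log2 fold change -0.02). Gdi2, whose product extracts Rabs from membranes and holds them in the cytosol, fell. It was at 806, 815 and 798 CPM in WT and 528, 515 and 536 CPM in IRF4-deficient libraries (log2 fold change -0.62, SE 0.07, edgeR adjusted p = 4.34e-06). Every IRF4-deficient library lay below the WT range. In the same list, the Rab escort protein gene Chm, needed for the lipid anchor of Rabs, was not called (101.1 against 96.4 CPM, edgeR adjusted p = 0.711).

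Of 34 tested GTPase-activating protein genes, 6 were lower (17.6%, against 10.5% of all genes) and 1 higher (2.94%, against 9.87%). Tbc1d9 fell from 734 to 391 CPM on average (log2 fold change -0.91, edgeR adjusted p = 9.80e-08) and Rabgap1l from 92.0 to 40.3 CPM (-1.19, 1.20e-06). Usp6nl, known to act on Rab5 and Rab43, was at 263, 285 and 285 CPM in WT and 164, 168 and 151 CPM in IRF4-deficient libraries, with no overlap (log2 fold change -0.79, edgeR adjusted p = 2.25e-06). Tbc1d5, an inactivator of Rab7, and Tbc1d8 fell from 225 and 542 CPM in WT (log2 fold changes -0.59 and -0.64). Tbc1d2b rose from 47.4 to 102.1 CPM (log2 fold change 1.11, edgeR adjusted p = 1.18e-06). Tbc1d4, the insulin-regulated inactivator of Rab10, was called lower at 511 against 616 CPM (edgeR adjusted p = 0.0427). That call was lost without IRF4-deficient replicate 1 (0.0539), 2 (0.0802) or 3 (0.113), or without WT replicate 2 (0.311), and also with DESeq2 (0.0503), no robust shrinkage (0.0573), a replicate block (0.0514) or Rn45s and Malat1 removed (0.0535).

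Exchange factors numbered 38 tested, 4 higher and 4 lower (21.1%, against 20.4% of all genes). Dennd4b and Dennd4c, paralogs that activate Rab10, went opposite ways, Dennd4b from 250 to 158 CPM (log2 fold change -0.66) and Dennd4c from 35.6 to 54.7 CPM (0.62). Dennd3, which activates Rab12, rose from 171 to 237 CPM (0.47), and Rab3il1, an exchange factor for Rab8, rose from 5.02 to 13.4 CPM (1.4). Rin3, for the Rab5 subfamily, fell from 165.5 to 117 CPM (-0.50). Ankrd28 rose from 22.0 to 51.8 CPM (1.24), but its product is known as a subunit of a protein phosphatase, and it stood in the list without being an exchange factor. The edgeR adjusted p of these 6 genes was at most 0.00563. Sbf1 and Dennd1b were the other 2 called lower (log2 fold changes -0.32 and -0.30). Both lost the call without IRF4-deficient replicate 1 (0.0614 and 0.159), WT replicate 1 (0.0833 and 0.0554) or WT replicate 2 (0.114 and 0.175), Sbf1 also without IRF4-deficient replicate 2 (0.0673), and Dennd1b also without IRF4-deficient replicate 3 (0.101) or WT replicate 3 (0.136). Dennd1b further missed the threshold in 5 other settings, with adjusted p from 0.0524 to 0.0612.

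Effectors were called at 25% of 56 tested (against 20.4% of all genes), 6 higher and 8 lower. Appl2, which binds Rab5 on early endosomes, rose from 71.4 to 129 CPM (log2 fold change 0.84), and the endosomal sorting nexin Snx1 rose from 76.5 to 138 CPM (0.86). Mical1, an actin-oxidising enzyme that binds Rab8-group proteins, rose from 128 to 184 CPM (0.52). The Rab11 effectors Wdr44 (61.8 to 37.3 CPM, -0.73) and Rab11fip1 (162 to 119 CPM, -0.45) fell, as did Myo5a, the motor that Rab27a recruits to melanosomes (563 to 435 CPM, -0.37). These 6 had an edgeR adjusted p of at most 0.00273 and kept their calls under every alternative run. Rabep1, an effector of Rab5 and Rab4, fell from 149 to 114 CPM (log2 fold change -0.39, edgeR adjusted p = 0.00931), which was 0.0511 without IRF4-deficient replicate 1 and 0.0559 without WT replicate 2. Lrrk2, a kinase of Rab8 and Rab10 listed here for its binding to Rab29, was not called (613 against 694 CPM, edgeR adjusted p = 0.248).

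The HOPS and CORVET tethers are recruited by Rab7 and Rab5 for membrane fusion. Among 9 tested genes listed for them, Vps33b was called higher and Vps39 lower (22.2%, against 20.4% of all genes). Vps33b stood in the list without being an established subunit of either tether. Its relative Vps33a was not called (log2 fold change 0.18, edgeR adjusted p = 0.442). Vps33b was at 47.2, 45.1 and 43.0 CPM in WT and 58.3, 53.0 and 88.5 CPM in IRF4-deficient replicates 1 to 3. Replicate 3 lay far above the other 2, and the log2 fold change went from 0.56 (edgeR adjusted p = 0.0217) to 0.30 (0.122) without it. That call was also lost without WT replicate 2 (0.0701) or 3 (0.0792). Vps39 fell from 115 to 87.4 CPM (log2 fold change -0.40, edgeR adjusted p = 0.0362), a call lost without IRF4-deficient replicate 2 (0.0929) or 3 (0.116) or WT replicate 2 (0.195) or 3 (0.0556). Of the 5 tested Rab-like GTPases outside the rule, 0 were called by edgeR (against 20.4% of all genes), DESeq2 or limma-voom. Among them 1 (Rabl5, log2 fold change -0.97) had an unadjusted p under 0.05.

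**Figure D4:**
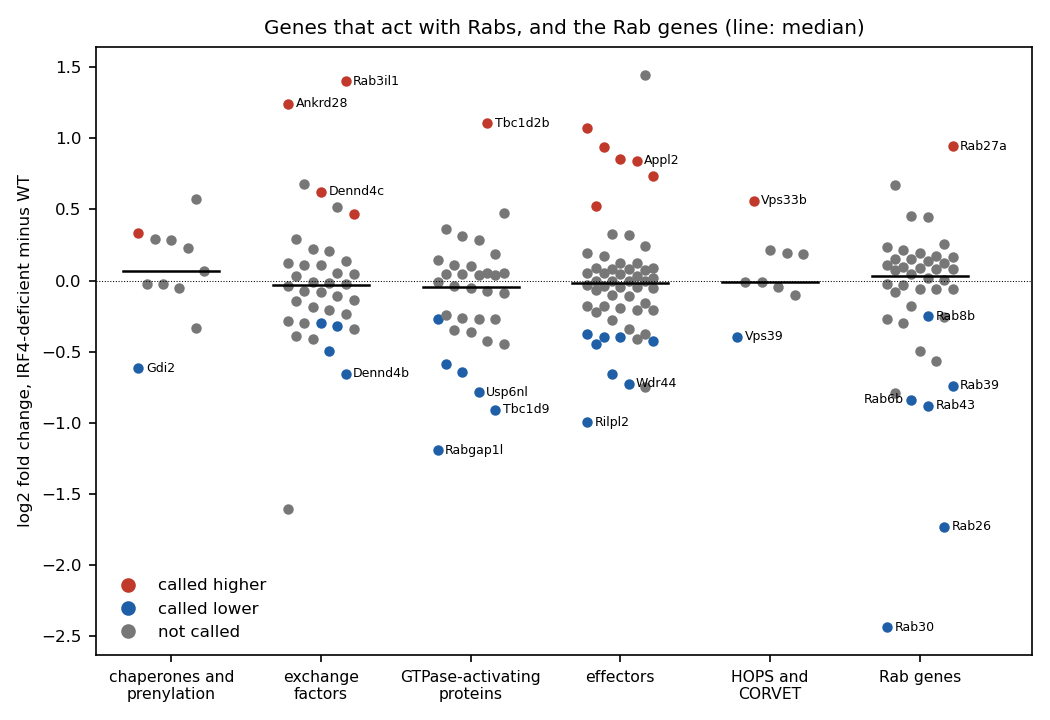
Log2 fold change (IRF4-deficient minus WT) of each tested gene in 5 lists of genes that act with Rabs, beside the 42 tested Rab genes, with a line at each median. Medians lie between -0.05 and 0.07, and in the GTPase-activating list 17.6% of genes were called lower, against 10.5% of all genes tested.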

How the data were processed

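Total RNA libraries of cDC2s (3 IRF4-deficient, 3 WT) were analysed from the deposited table of raw counts per gene, which the authors had not normalized. STAR, HTSeq and DESeq2 on mm10 are named in the submitters' processing notes. The sources used here do not give annotation, versions or strand setting. WT columns were tied to samples through the labels' source names.

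The Rab genes, roles and pathway lists were chosen with earlier results of these data known. All genes were fitted together with edgeR 4.0.16 (R 4.3.3): filterByExpr left 11934 of 14535 rows, then TMM scaling, robust dispersion estimates, glmQLFit and glmQLFTest. Calls needed an adjusted p (Benjamini-Hochberg over all tested genes) under 0.05. Fold changes carry a prior count of 0.125, and SEs come from the quasi-likelihood F statistic. Libraries within a group differed by more than counting noise (chi-square per degree of freedom 7.66 to 15.9), so each counted as 1. The edgeR code was first tested on simulated data.

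Genes were placed, and exon lengths taken, from GENCODE M21 (GRCm38), where all 48 Rab genes matched. Promoters are from RefSeq. Intervals on count ratios are exact and cover counting error only. The rule for named genes was every called Rab gene, the 10 with the highest mean CPM, members near 0, paralogs of called members, and per list the 4 smallest p and any gene of at least 100.0 CPM. Others were chosen after their values were seen. Some genes counted in the pathway lists are not reported here by name. Alternatives were DESeq2 1.42.0, DESeq2 and upper-quartile factors, no filter, 5 CPM in 3 libraries, limma-voom (limma 3.58.1), no robust shrinkage, a replicate block, removal of Rn45s and Malat1, and leaving out each library.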

Additional observations from a re-analysis of the deposited data

How the results depend on the processing

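Rab30, Rab43, Rab6b and Rab27a kept their calls and directions under all 15 alternatives. Outside the leave-one-out fits the number of Rab genes called lower was 5 to 7, against 6 as reported, and called higher 1. Leaving out each library in turn gave 1 to 4 Rab genes called higher (4 without IRF4-deficient replicate 3, 2 without replicate 1) and 3 to 7 called lower (3 without IRF4-deficient replicate 2 or WT replicate 3). It gave 868 to 1157 genes called higher and 911 to 1274 lower over all genes. For exchange factors it gave 2 to 3 called lower, and for effectors 3 to 5 called higher and 4 to 8 called lower. For the HOPS and CORVET list it gave 0 to 1 called higher and 0 to 1 lower. Rab39 lost its call with limma-voom (adjusted p = 0.0568), and Rab26 could not be tested at 5 CPM. Of the 32 called pathway genes, 20 kept their calls, and none changed direction. Gripap1, Micall1, Ocrl, Optn, Rab11fip5 and Rilpl2 are further genes that lost theirs in at least 1 fit.

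Among Rab genes without a call, 13 changed sign, each with a reported log2 fold change of at most 0.495 in size. With limma-voom these were Rab35 (-0.00214) and Rab3a (-0.0722). Over the leave-one-out fits the log2 fold change ran from -0.112 to 0.03 for Rab12, -0.115 to 0.014 for Rab14, -0.109 to 0.0989 for Rab19, -0.107 to 0.294 for Rab22a, -0.0225 to 0.583 for Rab23 and -0.434 to 0.112 for Rab28. It ran from -0.222 to 0.0781 for Rab32, -0.0772 to 0.23 for Rab33b, -0.0907 to 0.107 for Rab35, -0.908 to 0.0177 for Rab36, -0.265 to 0.493 for Rab3a, -0.146 to 0.00598 for Rab4b and -0.24 to 0.11 for Rab5a. The cause was not tested.

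Equal replicate numbers showed no pairing, as deviations of same-numbered libraries correlated at -0.00479, 0.0512 and -0.0106 across 11934 genes, which are not independent replicates. With so few libraries this cannot exclude a shared day or litter. The numbers follow the sample titles. By the column names, IRF4-deficient replicate 2 matches WT replicate 1 (-0.0172) and replicate 3 matches WT replicate 2 (-0.00971). That numbering was not used as a block. With the replicate number as a block, 1 Rab gene was called higher and 5 lower, Rab8b no longer being called (adjusted p = 0.0549), and 1090 genes were higher and 1177 lower in all. Depth limits the 6 untested members and Rab36, Rab3a and Rab26 most.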
